A study of Mus musculus with 20 samples.

Results

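Embryoid bodies (EBs) are aggregates in which mouse embryonic stem cells (mESCs) leave self-renewal and begin to form the early lineages. Genes were compared between Zmym2-/- and control EBs at day 3, in 4 of the 20 RNA-seq libraries of the series. The other libraries were 4 of the same lines as mESCs in serum with LIF and 12 whole embryos at E8.5. The EB libraries were chosen by their labels alone, and all 20142 genes of their count table were examined.

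The Zmym2-/- group held 2 EB libraries, KO1 and KO2, and the control group held 2, NT1 and NT2. Both groups derived from V6.5, an mESC line of strain C57BL/6x129/SvJae, and both were harvested at day 3. The Zmym2-/- lines had been nucleofected with Cas9 ribonucleoprotein and a guide against Zmym2, and the control lines with a non-targeting guide, so the genotype that the labels call Wild-Type is that of nucleofected controls. Each library represents 1 clonal line. Variation between clones is thus the only replicate error, and effects of genotype and of clonal selection cannot be told apart with 2 clones a side.

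ZMYM2 is a zinc finger protein that binds SUMO and associates with the LSD1, CoREST and HDAC corepressor. Germline genes are normally silenced at implantation by promoter methylation and by Polycomb complexes such as PRC1.6, and young LINE-1 transposons by TRIM28 and DNA methylation. Genes of the 2-cell embryo, such as those of the Zscan4 family, are transcribed in rare, transient cells of mESC cultures and decline on differentiation.

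The libraries held 33183937 to 50937945 counts, so that 1 CPM (a count scaled to the library total and by TMM factors of 0.993 to 1.011) was at least 33.2 counts. Log2 CPM correlated across genes at 0.996 in the KO pair, 0.997 in the NT pair and 0.991 to 0.992 between groups. Mitochondrial genes took 0.739% to 0.881% of counts. Fgf5, a growth factor of primed epiblast, had 176 CPM in KO1 and 187 CPM in KO2, against 161 CPM in NT1 and 168 CPM in NT2. In control mESCs it had 0.337 and 0.0549 CPM. Pou5f1, the pluripotency factor OCT4, was still at 1432 and 1393 CPM in Zmym2-/- EBs, against 1513 and 1463 CPM in control EBs. The primitive streak gene T had 5.62 and 4.70 CPM in KO, against 4.01 and 1.91 CPM in NT, and the endoderm gene Gata6 was under 1 CPM in every library. Eomes, another streak gene, had 41.2 and 46.8 CPM in KO, against 39.1 and 23.5 CPM in NT. It did not pass the test (edgeR quasi-likelihood, Benjamini-Hochberg adjusted p = 0.108), and neither did Mixl1, Sox17 and Pax6. Both groups therefore carried markers of primed epiblast, and lists of germ layer genes are given below.

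Zmym2 itself (ENSMUSG00000021945, chromosome 14, 56886653 to 56962701, GRCm38) had 32.4 CPM in KO1 and 30.9 CPM in KO2, against 92.8 CPM in NT1 and 93.1 CPM in NT2. Its log2 fold change was -1.55 ± 0.07 (standard error; edgeR quasi-likelihood test with Benjamini-Hochberg adjustment, adjusted p = 9.70e-08). Both KO libraries lay below both NT libraries, as the labels have it, and the fitted level was 2.93-fold higher in NT. Of the other 5 ZMYM family genes, 0 were called in edgeR (0 at an unadjusted p under 0.05).

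Promoter sequences of genes that rose in Zmym2-/- EBs are shown because motifs of the PRC1.6 subunits MGA and E2F6 bear on germline genes. Windows run from 250 bases before to 50 bases after the start in RefSeq (GRCm38.p6), on the gene's own strand. Capitals mark the E-box CACGTG, which reads alike on both strands, and the E2F motif, searched as TCCCGC and as its reverse complement GCGGGA. The E-box can overlap either form of the E2F motif by no more than an end base. Usp26, D1Pas1 and Gm4779 are the genes with the smallest p among study-listed promoter genes matched to a RefSeq window, and Hormad1, chosen after its values were seen, is the gene of smallest p with both motifs.
Usp26 (chrX:51801184-51801483, minus strand): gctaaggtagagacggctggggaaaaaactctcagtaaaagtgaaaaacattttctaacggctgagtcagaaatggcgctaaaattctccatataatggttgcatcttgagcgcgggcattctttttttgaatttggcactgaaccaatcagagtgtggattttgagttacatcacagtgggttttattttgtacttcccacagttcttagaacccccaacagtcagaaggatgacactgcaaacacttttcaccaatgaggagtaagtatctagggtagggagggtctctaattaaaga
D1Pas1 (chr1:186967166-186967465, plus strand): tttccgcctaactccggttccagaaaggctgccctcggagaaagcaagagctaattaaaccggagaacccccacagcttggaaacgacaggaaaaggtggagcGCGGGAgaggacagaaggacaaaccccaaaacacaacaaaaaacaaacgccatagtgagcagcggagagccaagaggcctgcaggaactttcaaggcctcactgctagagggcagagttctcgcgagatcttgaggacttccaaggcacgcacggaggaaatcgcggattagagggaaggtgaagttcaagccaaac
Gm4779 (chrX:101794396-101794695, minus strand): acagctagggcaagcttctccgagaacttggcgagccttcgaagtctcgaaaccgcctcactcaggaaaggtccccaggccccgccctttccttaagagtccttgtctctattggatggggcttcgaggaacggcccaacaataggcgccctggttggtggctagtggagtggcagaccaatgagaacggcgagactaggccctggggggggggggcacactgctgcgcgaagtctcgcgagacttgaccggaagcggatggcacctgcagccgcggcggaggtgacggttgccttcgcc
Hormad1 (chr3:95559427-95559726, plus strand): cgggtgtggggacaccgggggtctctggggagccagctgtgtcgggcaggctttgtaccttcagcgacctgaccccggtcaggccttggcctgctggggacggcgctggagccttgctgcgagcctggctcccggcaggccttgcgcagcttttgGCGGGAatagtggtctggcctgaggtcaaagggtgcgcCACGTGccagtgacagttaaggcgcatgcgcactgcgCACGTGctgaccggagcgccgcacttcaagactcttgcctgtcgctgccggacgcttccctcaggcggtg

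Hormad1 held 2 E-boxes, 1 E2F motif and 24 CpG, and D1Pas1 held 1 E2F motif and 15 CpG. Neither motif was found in the windows of Usp26 and Gm4779, with 5 and 22 CpG. The Gm4779 window shares 290 of its 300 bases with that of 8030474K03Rik on the other strand, so this pair is transcribed away from 1 stretch of sequence. 8030474K03Rik rose as well, with 8.13 and 7.87 CPM in KO, against 2.28 and 2.04 CPM in NT.

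Among all tested genes with a RefSeq promoter (13054 genes, 16549 windows), 9.46% of windows held the E-box and 33.0% the E2F motif, with a median of 18 CpG. Windows of the study-listed promoter genes that rose (34 of 43 genes, 36 windows) held the E-box in 22.2%, 8 of 36, and the E2F motif in 18 of 36, with a median of 13.5 CpG. Windows of all genes that rose by at least 4-fold (173 of 311 genes, 197 windows) held them in 8.12% and 10.2%, with a median of 6 CpG. In the 14 windows of 2-cell genes that rose, both motifs had a count of 0 and the median was 1.5 CpG. A match describes letters in a window and not binding.

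More genes rose than fell in Zmym2-/- EBs, and by larger amounts. Of 20142 genes, 931 (4.62%) rose and 558 (2.77%) fell in Zmym2-/- EBs at an adjusted p under 0.05 (edgeR). At a fold change of at least 4, 311 (1.54%) rose and 7 (0.0348%) fell. The groups did not overlap for any called gene. Over all genes, both KO libraries lay above both NT libraries in 26.2% and below them in 24.4%. Without adjustment, 2350 genes (11.7%) had a higher and 1801 (8.94%) a lower level in KO at p under 0.05. The decreases were small, and 517 of the 558 (92.7%) were under 2-fold. The median log2 fold change of all genes was 0.01, so the scale was centred.

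**Figure D1:**
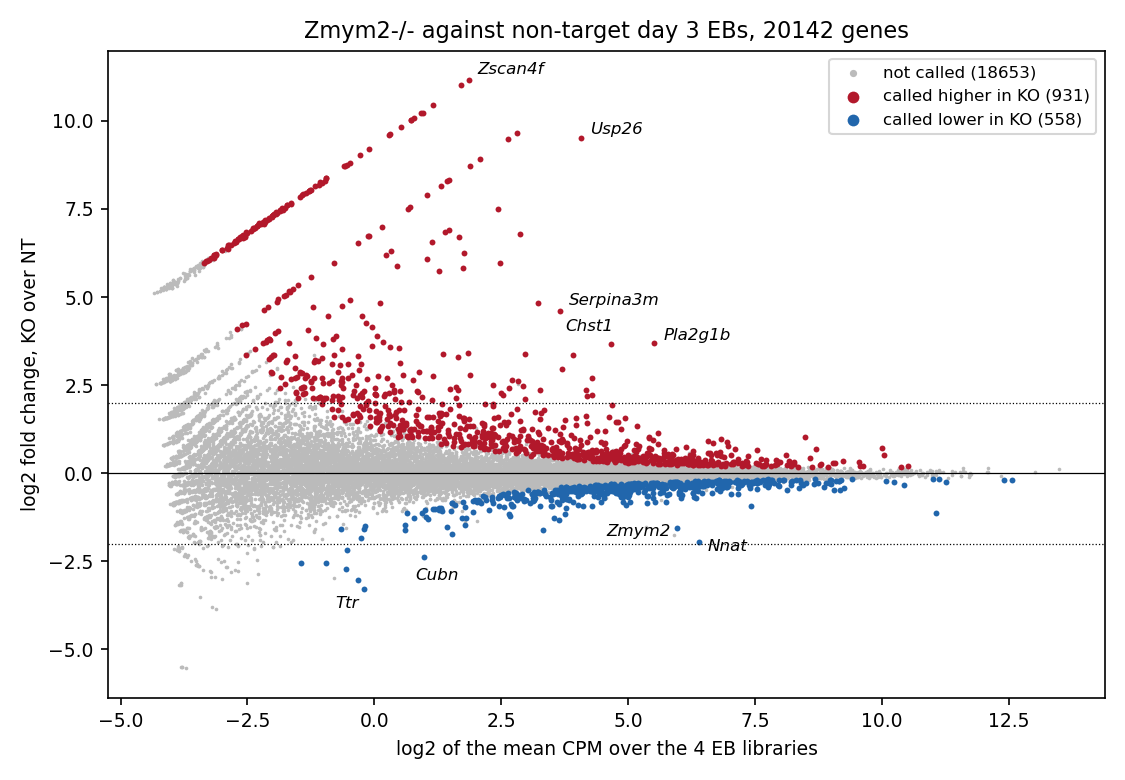
Log2 fold change of Zmym2-/- over control EBs (vertical axis) against the log2 mean CPM of the 4 EB libraries (horizontal axis), 1 point per gene, with 931 genes called higher in red, 558 called lower in blue and the others in grey. Beyond the dotted lines at 4-fold lie 311 genes called higher and 7 called lower, and the diagonal streaks at the left are genes with 0 or few control counts, whose fitted fold depends on a prior count.

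Genes that rose by at least 4-fold were mostly low or absent in controls. The filter and the fold cut favour this, since genes with few NT counts met the minimum of 10 counts through the KO libraries. Among the 311, 290 (93.2%) averaged under 1 CPM in NT, against 33.1% of all genes tested, and 104 had no NT count. Their median level was 0.885 CPM in KO and 0.0424 CPM in NT, and 146 reached 1 CPM and 23 reached 10 CPM in KO. Levels were within 2-fold of each other in the KO clones for 235 of the 311, and KO1 was the higher clone for 217. By GENCODE type 210 (67.5%) were protein-coding, 51 (16.4%) pseudogenes and 46 (14.8%) long non-coding RNA or TEC, against 77.3%, 11.1% and 10.2% of tested genes.

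The most abundant of these were well above background in both clones. Pla2g1b, a secreted phospholipase A2 of the pancreas, had 77.7 CPM in KO1 and 90.4 CPM in KO2, against 7.01 CPM in NT1 and 5.88 CPM in NT2 (log2 fold change 3.71 ± 0.11, edgeR adjusted p = 2.20e-09). Per length, its mean was 119 RPKM in KO and 8.99 RPKM in NT. Pla2g1b is listed by the study among transposon-fusion genes.

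Usp26, an X-linked deubiquitinase gene of the testis, had 39.0 CPM in KO1 and 28.4 CPM in KO2, against 0.0303 CPM in NT1 and 0.0544 CPM in NT2. These were 1986 and 985 counts in KO, against 1 and 2 counts in NT, a ratio of 814 (95% counting interval 278 to 3950). Its fitted log2 fold change, which depends on the prior count, was 9.51 ± 0.31 (edgeR adjusted p = 4.74e-09). Usp26 was thus close to absent from control EBs and among the better expressed of the induced genes.

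Increases with the smallest p were also found outside the germline lists, and these genes were chosen after their values were seen. Chst1, a sulfotransferase of keratan sulfate, had 45.8 and 48.6 CPM in KO, against 3.73 and 3.68 CPM in NT (3.67 ± 0.10, adjusted p = 2.20e-09 in edgeR). Inpp5d, the lipid phosphatase SHIP1 of blood cells, had 27.1 and 27.5 CPM in KO, against 2.88 and 2.45 CPM in NT. Serpina3m, a serine protease inhibitor, had 23.5 and 25.1 CPM in KO, against 1.37 and 0.653 CPM in NT. Each had a gap between groups several-fold wider than that between clones. Tmem40, a membrane protein gene, likewise had 9.45 and 12.5 CPM in KO, against 0.182 and 0.163 CPM in NT.

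**Figure D2:**
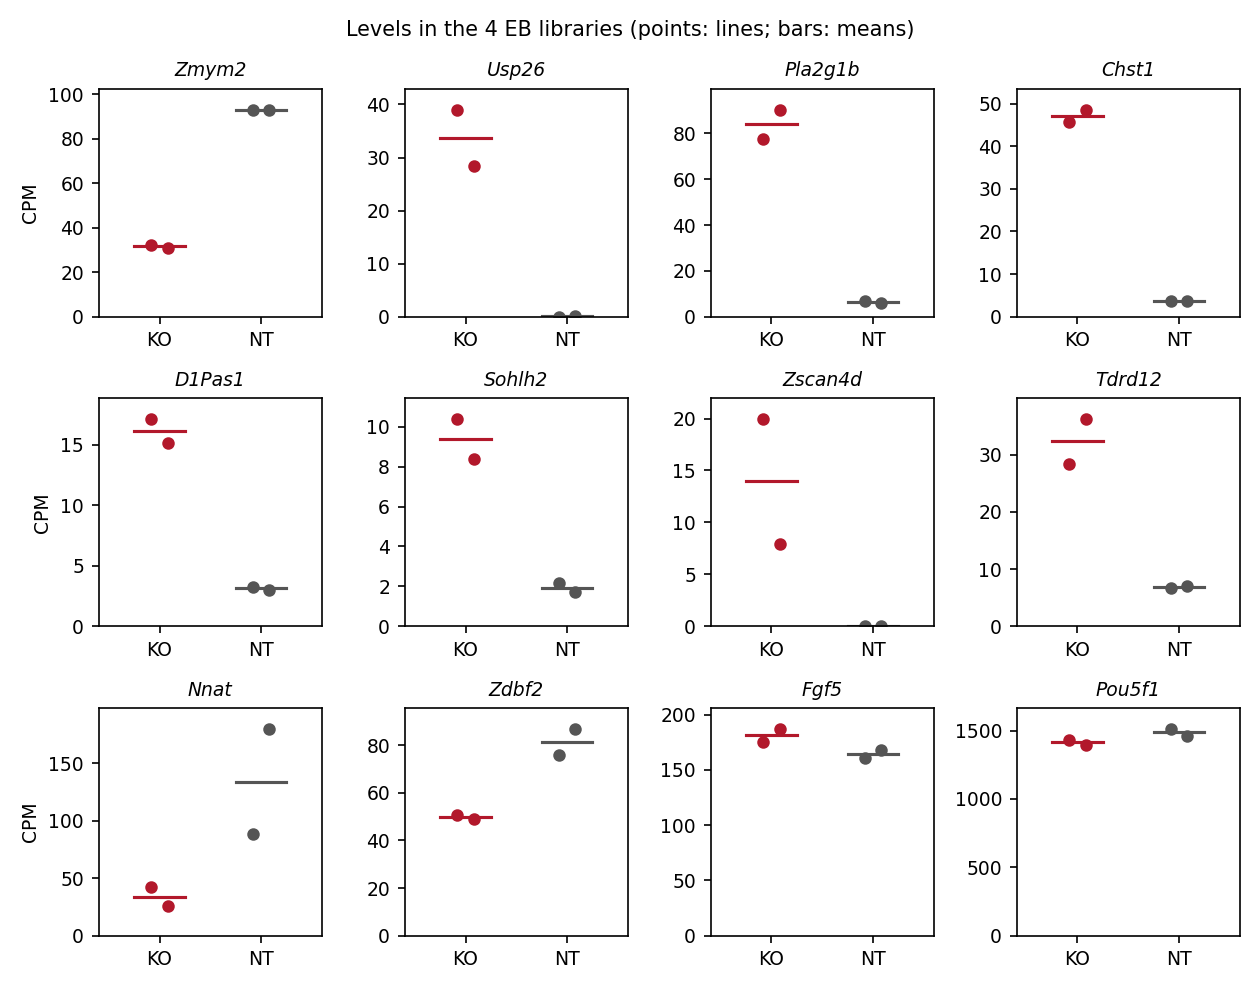
CPM (vertical axis, from 0, a scale per panel) of 12 genes in Zmym2-/- (KO, left) and control (NT, right) EBs, with 1 point per clonal line and a bar at the mean. Usp26, Pla2g1b, Chst1, D1Pas1, Sohlh2, Zscan4d and Tdrd12 lie higher in both KO lines, Zmym2, Nnat and Zdbf2 lie lower, and Fgf5 and Pou5f1 differ little between groups.

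Genes of the 2-cell embryo rose by large amounts. Of 27 listed 2-cell genes 23 were tested, and 20 rose, all by at least 4-fold, while 0 fell (edgeR, also 0 at an unadjusted p under 0.05 and 0 in DESeq2). Their median log2 fold change was 7.40, or 6.53 with the 10 genes of no NT count set at their lower bound, against 0.01 over all genes. Summed over the list, levels were 140 CPM in KO1 and 65.2 CPM in KO2, against 1.85 CPM in NT1 and 2.18 CPM in NT2. Genes with few or no NT counts met the count minimum through the KO libraries alone, so a higher level in KO was given for them by that filter. In these bulk libraries, more cells in a 2-cell-like state and more such RNA per cell cannot be told apart.

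The Zscan4 genes, which encode SCAN and zinc finger proteins of the 2-cell embryo, had few or no control counts. Zscan4d had 19.9 CPM in KO1 and 7.96 CPM in KO2, against 0.0303 CPM in NT1 and 0 CPM in NT2, a ratio of 1061 with a 95% counting interval of 190 to 41946. Zscan4c had 17.0 and 7.93 CPM in KO, against 0 and 0.0272 CPM in NT. Zscan4f, with 10.4 and 4.15 CPM in KO and no NT count, was at least 184-fold higher, taking 3 counts in the NT pair as the floor. Zscan4-ps3 and Zscan4-ps1, which GENCODE types as protein-coding despite their names, were at least 164-fold and 113-fold higher on the same floor. KO1 was the higher clone for 19 of the 20 2-cell genes that rose, with a median ratio of KO1 to KO2 of 2.19. The clones thus differed in amount, while their shared direction follows from the choice of genes called higher.

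Other 2-cell families moved likewise. The deubiquitinase genes Usp17le and Usp17lb had 18 and 10.9 CPM and 14.9 and 6.69 CPM in KO, against 0.0303 and 0.218 CPM and 0.0607 and 0.0544 CPM in NT. Tcstv3 and Zfp352, both chosen after their values were seen, were at least 13.2-fold higher, with no NT count, and Zfp352 was not called without KO1. Duxf3, which encodes the activator DUX of the 2-cell programme, had 1.08 and 0.606 CPM in KO, against 0 and 0.109 CPM in NT (3.84 ± 0.76, edgeR adjusted p = 0.00891). The uncharacterised genes Gm4340, Gm12800, Gm20767 and Gm21761 and the PRAME family gene Pramef25 had no NT count and were at least 71.5-fold to 95.3-fold higher. Members of these families are near-identical copies, so counts assigned to any single one are uncertain.

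Part of the 4-fold increases lay in gene clusters. Of 308 such genes with a GENCODE position, 48 (15.6%) lay in 6 runs of at least 4 genes with gaps of up to 500 kb. On chromosome 12 (87480108 to 88324026) 15 of 23 tested genes rose by at least 4-fold, a run that includes Gm5662 and Gm2022. On chromosome 7 (10794242 to 11614112) 10 of 12 did, which is the Zscan4 cluster. On chromosome 13 (119893388 to 120318178) 7 of 11 did, Tcstv1 and Tcstv3 among them, and on chromosome 4 (143551700 to 144364419) 6 of 8, Pramef6 and Pramef25 among them. Neither X nor any autosome moved as a whole, since their median log2 fold changes of genes at 5 CPM or more lay between -0.05 and 0.00. On Y, 3 of 9 tested genes rose by at least 4-fold, and only 1 gene reached 5 CPM.

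Germline genes rose as several groups. Of 22 piRNA pathway genes, 10 rose and 0 fell (0 also at an unadjusted p under 0.05 and in DESeq2), with a median log2 fold change of 0.78. Of 40 tested meiosis genes, 13 rose and 0 fell on the same 3 counts, with a median of 0.63. Of 22 tested germ cell RNA and transcription regulators, 10 rose and 0 fell, with a median of 0.86, and of 19 tested X-linked germline genes 8 rose and 0 fell, with a median of 1.83. For these lists too, 0 fell at an unadjusted p under 0.05 and in DESeq2. The shares of members that rose were 45.5%, 32.5%, 45.5% and 42.1%, against 4.62% of all genes. In the same order of lists, DESeq2 called 10, 9, 8 and 5 members higher, and limma on log2(RPKM + 0.1) called 6, 4, 4 and 3.

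In the piRNA pathway, which silences transposons in germ cells, the levels were moderate. Tex19.1, a factor of transposon control in germ cells, had 43.4 CPM in KO1 and 37.9 CPM in KO2, against 10.3 CPM in NT1 and 11 CPM in NT2 (1.93 ± 0.10, edgeR adjusted p = 3.32e-07). Tdrd12, a Tudor domain protein of piRNA biogenesis, had 28.4 and 36.3 CPM in KO, against 6.71 and 7.02 CPM in NT. Both genes were thus transcribed in control EBs already and higher in both KO clones. The co-chaperone gene Fkbp6 had 6.88 and 6.23 CPM in KO, against 0.334 and 0.871 CPM in NT, and the Morc1 gene had 9.43 and 9.63 CPM in KO, against 1.76 and 2.29 CPM in NT. Mael rose less, with 11.1 and 15.2 CPM in KO, against 7.56 and 5.93 CPM in NT (0.96 ± 0.17, adjusted p = 0.00490 in edgeR). Piwil2, a PIWI protein gene, had 10.4 and 10.9 CPM in KO, against 4.16 and 4.87 CPM in NT.

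The helicase gene Ddx4 had 24.2 and 25.6 CPM in KO, against 19.6 and 18.6 CPM in NT (0.38 ± 0.09, edgeR adjusted p = 0.0239), and was not called without NT2. Tdrd1 did not pass the test at 15.5 and 16.1 CPM in KO, against 11.9 and 13.1 CPM in NT (0.34 ± 0.11, edgeR adjusted p = 0.0909). Fitted increases of the called members named here reached 10.7-fold, for Fkbp6.

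Among meiosis genes, Tex15, needed for meiotic recombination and transposon silencing, had 26.0 CPM in KO1 and 28.2 CPM in KO2, against 7.71 CPM in NT1 and 9.83 CPM in NT2 (1.62 ± 0.12, edgeR adjusted p = 8.65e-06). M1ap had 4.85 and 5.62 CPM in KO, against 1.21 and 0.844 CPM in NT. Syce1, of the synaptonemal complex, had 9.21 and 8.42 CPM in KO, against 4.55 and 3.95 CPM in NT. These genes did not overlap between groups, as was so for every called gene. Hormad1, a chromosome axis protein gene, had 1.77 and 1.96 CPM in KO, against 0.486 and 0.327 CPM in NT (2.20 ± 0.35). Tex12, of the same complex as Syce1, had 0.255 and 0.144 CPM in KO and no NT count, at an adjusted p of 0.0498 in edgeR that was lost without KO1, NT1 or NT2.

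Of the regulators of germ cells, D1Pas1, a testis RNA helicase gene that resembles Ddx3x and may share reads with it, had 17.1 CPM in KO1 and 15.1 CPM in KO2, against 3.25 CPM in NT1 and 3.02 CPM in NT2 (2.36 ± 0.14, edgeR adjusted p = 1.56e-06). Sohlh2, a helix-loop-helix factor of germ cell differentiation, had 10.4 and 8.39 CPM in KO, against 2.15 and 1.72 CPM in NT. Ctcfl, the germline paralogue of CTCF, had 2.38 and 2.77 CPM in KO, against 0.0607 and 0.354 CPM in NT. For each, the lower KO library exceeded the higher NT library several-fold. Dazl, an RNA-binding protein gene of germ cells, had 4.42 and 3.72 CPM in KO, against 1.34 and 1.2 CPM in NT (1.69 ± 0.23).

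On the X chromosome, AU022751 had 13.4 CPM in KO1 and 11.2 CPM in KO2, against 2.03 CPM in NT1 and 1.96 CPM in NT2. The homeobox gene Rhox13 had 2.67 and 1.70 CPM in KO, against 0.455 and 0.408 CPM in NT, and the MAGE family gene Mageb16 had 4.50 and 2.60 CPM in KO, against 0.941 and 0.762 CPM in NT. All passed the test, and none overlapped, as was so for every called gene. Rhox5 had 5.97 and 1.79 CPM in KO, against 1.03 and 0.163 CPM in NT, and was not called without KO1.

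Primordial germ cell genes and naive pluripotency genes were divided. Of 12 primordial germ cell genes, 5 rose (41.7%, against 4.62% of all genes) and 1 fell (8.33%, against 2.77%), with a median log2 fold change of 0.39. Of 19 naive pluripotency genes, 6 rose (31.6%) and 1 fell (5.26%), with a median of 0.31. Dppa3, which encodes the maternal factor STELLA and is in both lists, had 12.8 CPM in KO1 and 8.36 CPM in KO2, against 2.25 CPM in NT1 and 1.74 CPM in NT2 (2.42 ± 0.23, edgeR adjusted p = 4.63e-05). Klf2, a factor of naive mESCs, had 40.5 and 50.8 CPM in KO, against 16.3 and 14.4 CPM in NT (1.57 ± 0.11). Zfp42, also named Rex1, had 44.4 and 40.7 CPM in KO, against 25 and 28.6 CPM in NT (0.67 ± 0.09). The naive factor Nr0b1 was the 1 that fell, with 4.05 and 3.78 CPM in KO, against 7.37 and 10.02 CPM in NT.

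Core factors of the naive network did not pass the test. Esrrb had 9.66 and 6.26 CPM in KO, against 5.52 and 7.38 CPM in NT (0.31 ± 0.21, edgeR adjusted p = 0.440), and its groups overlapped. Klf4 had 3.01 and 2.11 CPM in KO, against 2.55 and 2.07 CPM in NT (0.16 ± 0.25, edgeR adjusted p = 0.786), and Tfcp2l1 had 3.52 and 3.35 CPM in KO, against 2.58 and 3.27 CPM in NT (0.23 ± 0.21, edgeR adjusted p = 0.605). With 2 clones a side, these intervals leave room for changes in either direction.

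Formative and primed epiblast genes changed in both directions. Of 20 members, 6 fell (30.0%, against 2.77% of all genes) and 2 rose, with a median log2 fold change of -0.12, and without KO1 4 rose and 5 fell. Tcf7l1, a repressor of Wnt targets, had 96.2 CPM in KO1 and 96.8 CPM in KO2, against 124 CPM in NT1 and 125 CPM in NT2 (-0.37 ± 0.06, edgeR adjusted p = 0.00175). Sall2 had 199 and 190 CPM in KO, against 237 and 248 CPM in NT (-0.32 ± 0.05). The de novo DNA methyltransferase gene Dnmt3a had 363 and 410 CPM in KO, against 456 and 484 CPM in NT (-0.28 ± 0.06, edgeR adjusted p = 0.0120). These decreases were small but exceeded the distance between clones. Dnmt3b did not pass the test, with 2334 and 2479 CPM in KO, against 2595 and 2681 CPM in NT (-0.13 ± 0.04, edgeR adjusted p = 0.0872). Dnmt3l, their catalytically inactive partner, rose, with 122 and 106 CPM in KO, against 77.1 and 76.3 CPM in NT.

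**Figure D3:**
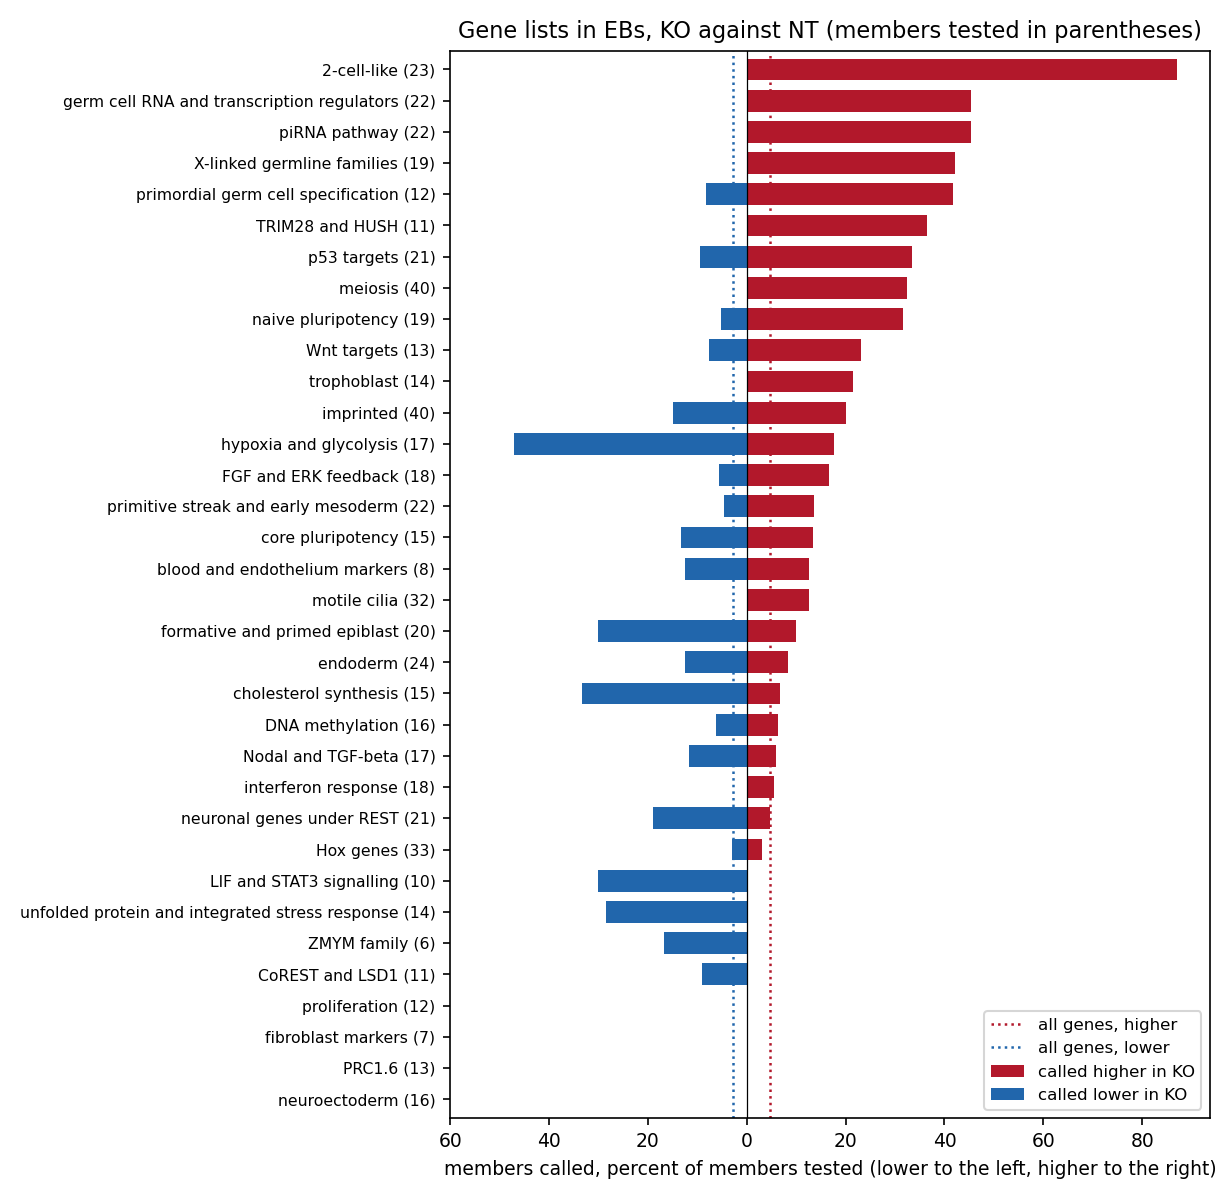
Members called lower (blue, to the left of 0) and higher (red, to the right of 0) in Zmym2-/- EBs, as a percent of the members tested (horizontal axis), for 34 gene lists (number tested in parentheses). Dotted lines mark the 4.62% higher and 2.77% lower over all genes, the 2-cell list has the longest red bar, and hypoxia and glycolysis the longest blue bar.

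Germ layer genes changed in both directions. Of 22 primitive streak and early mesoderm genes, 3 rose (13.6%, against 4.62% of all genes) and 1 fell. Their median log2 fold change was 0.59, with 9 higher and 1 lower at an unadjusted p under 0.05. Without KO2 8 rose, without NT1 6 and without NT2 1. Of 24 endoderm genes, 2 rose and 3 fell (12.5%, against 2.77% of all genes), with a median of -0.40 and with 2 higher and 8 lower at an unadjusted p under 0.05. Without KO2 5 fell, without NT1 1 and without NT2 9. Of 16 neuroectoderm genes 0 rose and 0 fell in edgeR, with 4 higher and 1 lower at an unadjusted p under 0.05, and DESeq2 called 1 lower. Cdx1, a caudal homeobox gene, had 1.24 and 1.62 CPM in KO, against 0.334 and 0.599 CPM in NT, and was not called without NT1. The Nodal antagonist gene Lefty2 had 43.3 and 42.3 CPM in KO, against 58.5 and 72.8 CPM in NT (-0.62 ± 0.09, edgeR adjusted p = 0.00169).

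Visceral endoderm genes were among the few large decreases. Cubn, which encodes the endocytic receptor cubilin, had 0.845 CPM in KO1 and 0.375 CPM in KO2, against 4.82 CPM in NT1 and 1.82 CPM in NT2 (-2.37 ± 0.46, edgeR adjusted p = 0.00802). Ttr, which encodes transthyretin, had 0.275 and 0 CPM in KO, against 2.79 and 0.408 CPM in NT, and was not called without NT1. NT1 was the higher control for both genes. Gata4 moved the other way, with 4.07 and 6.84 CPM in KO, against 2.58 and 1.17 CPM in NT (1.54 ± 0.33, edgeR adjusted p = 0.0142).

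Genes outside the endoderm list that fell by at least 4-fold were the pepsinogen gene Pga5, Klhl4, the amino acid transporter gene Slc6a14 and Il20ra. Pga5 had 0.236 and 0.0865 CPM in KO, against 2.18 and 0.708 CPM in NT, and was not called without NT1. Klhl4 had 0.295 and 0.0288 CPM in KO, against 1.12 and 1.28 CPM in NT (-2.72 ± 0.57, edgeR adjusted p = 0.0125). These values were under 1 CPM in both KO libraries.

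Imprinted genes, whose parental alleles are differently expressed, changed in both directions. Of 40 tested, 8 rose and 6 fell, with a median log2 fold change of 0.05. Nnat, encoding neuronatin, had 42.5 CPM in KO1 and 25.5 CPM in KO2, against 87.9 CPM in NT1 and 180 CPM in NT2 (-1.97 ± 0.27, edgeR adjusted p = 0.000910). Zdbf2 had 50.9 and 49.2 CPM in KO, against 75.9 and 87.0 CPM in NT (-0.70 ± 0.08, edgeR adjusted p = 0.000137). The groups were apart for both, as for every called gene, with a wide spread between control clones for Nnat. H19, a maternally expressed non-coding RNA, had 2.99 and 2.16 CPM in KO, against 0.637 and 0.626 CPM in NT (2.03 ± 0.30), and the growth inhibitor gene Cdkn1c had 93.2 and 81.2 CPM in KO, against 62.1 and 60.2 CPM in NT.

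Genes of silencing complexes were read as further lists. Of 11 tested TRIM28 and HUSH genes, 4 rose (36.4%, against 4.62% of all genes) and 0 fell (1 lower at an unadjusted p under 0.05, 0 in DESeq2). Zfp809, a KRAB zinc finger protein gene that recruits TRIM28 to proviruses, had 31.9 CPM in KO1 and 32.6 CPM in KO2, against 13.3 CPM in NT1 and 14.9 CPM in NT2 (1.19 ± 0.09, edgeR adjusted p = 1.30e-05). Atf7ip, a cofactor of the H3K9 methyltransferase SETDB1, had 167 and 154 CPM in KO, against 81.3 and 92.4 CPM in NT (0.88 ± 0.07). Of 13 PRC1.6 genes 0 rose and 0 fell in edgeR and DESeq2, with 1 higher and 0 lower at an unadjusted p under 0.05. Of 11 CoREST and LSD1 genes, 1 fell (9.09%, against 2.77% of all genes), Phf21a. It had 46.1 and 55.5 CPM in KO, against 64.9 and 67.1 CPM in NT, and was not called without KO1.

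Signalling and stress genes showed mostly small changes. Of 21 p53 targets, 7 rose (33.3%, against 4.62% of all genes) and 2 fell (9.52%, against 2.77%), with a median log2 fold change of 0.21. Phlda3, a p53 target that restrains AKT, had 139 CPM in KO1 and 129 CPM in KO2, against 93.6 CPM in NT1 and 84.3 CPM in NT2 (0.60 ± 0.07, edgeR adjusted p = 0.000197). Trp53inp1 had 103 and 86.8 CPM in KO, against 59.5 and 62.5 CPM in NT, and the death receptor gene Eda2r had 28.5 and 22.5 CPM in KO, against 14.7 and 10.4 CPM in NT. Of 18 interferon response genes 1 rose (5.56%), Bst2, with 161 and 178 CPM in KO, against 110 and 99.5 CPM in NT. None of these overlapped between groups, as was so for every called gene.

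Of 18 FGF and ERK feedback genes 3 rose (16.7%, against 4.62% of all genes) and 1 fell (5.56%, against 2.77%). Of 17 tested Nodal and TGF-beta genes 1 rose (5.88%) and 2 fell (11.8%), and of 13 Wnt target genes 3 rose (23.1%) and 1 fell (7.69%). Axin2, a feedback inhibitor of Wnt signalling, had 42.6 and 39.1 CPM in KO, against 23.5 and 20.1 CPM in NT (0.91 ± 0.09, edgeR adjusted p = 9.76e-05). Of 10 tested LIF and STAT3 genes, 3 fell (30.0%) and 0 rose (7 lower and 0 higher at an unadjusted p under 0.05, 0 higher in DESeq2). Il6st, the shared receptor subunit gp130, had 22.6 and 21 CPM in KO, against 29.9 and 29.6 CPM in NT (-0.45 ± 0.09, edgeR adjusted p = 0.00792).

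Metabolic genes were divided, with small changes. Of 17 hypoxia and glycolysis genes, 8 fell (47.1%, against 2.77% of all genes), 3 rose and 6 were not called, with a median log2 fold change of -0.13, and without NT1 1 rose. The glycolytic kinase gene Pgk1 had 493 CPM in KO1 and 477 CPM in KO2, against 657 CPM in NT1 and 687 CPM in NT2 (-0.47 ± 0.05, edgeR adjusted p = 6.52e-05). Vegfa, an angiogenic factor gene induced by hypoxia, had 7.86 and 7.5 CPM in KO, against 16.8 and 12.8 CPM in NT (-0.94 ± 0.14). The glucose transporter gene Slc2a1 rose instead, with 587 and 610 CPM in KO, against 497 and 477 CPM in NT (0.30 ± 0.05).

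Of 15 cholesterol synthesis genes, 5 fell, 1 rose and 9 were not called, with a median of -0.18, and 8 fell without KO1 or without NT1. Msmo1, a methylsterol monooxygenase gene, had 111 and 107 CPM in KO, against 132 and 148 CPM in NT (-0.36 ± 0.06, edgeR adjusted p = 0.00503). Of 14 stress response genes, 4 fell and 0 rose (1 higher at an unadjusted p under 0.05, 0 in DESeq2). The shares that fell were 33.3% for cholesterol and 28.6% for stress genes, against 2.77% of all genes. Chac1, a glutathione-degrading target of ATF4, had 10.8 CPM in both KO libraries, against 20.7 and 17.6 CPM in NT (-0.82 ± 0.11, edgeR adjusted p = 0.000892). These genes fell beyond the spread of the clones, by less than 2-fold each.

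Markers of other cells were also read. Of 7 tested fibroblast genes 0 were called in edgeR or at an unadjusted p under 0.05, and of 12 proliferation genes 0 were called (4 higher and 2 lower at an unadjusted p under 0.05). Of 8 tested blood and endothelium genes, Pecam1 rose and Tal1 fell (12.5% each, against 4.62% and 2.77% of all genes). Of 9 tested Y-linked genes, 3 rose, each by at least 4-fold, and 1 fell. Those named here differed in detection and were chosen after their values were seen. Eif2s3y had 1.43 CPM in KO1 and 6.37 CPM in KO2 and no NT count, at least 80.6-fold higher on the floor of 3 counts over the NT pair. Ddx3y had 0.491 and 0.433 CPM in KO and no NT count. The part that Y-linked reads play in the genotype comparison was not tested.

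The study listed 165 genes that rose in Zmym2-/- embryos at E8.5, from libraries other than these. Of 139 tested in EBs, 67 rose (48.2%, against 4.62% of all genes) and 0 fell (0 at an unadjusted p under 0.05 and 0 in DESeq2). Their median log2 fold change was 1.25. Both KO libraries lay above both NT libraries for 116 of the 139, against 26.2% of all genes, and below them for 4, against 24.4%, while 6 of the 139 had no NT count. Among genes listed with an annotated promoter, 43 of 85 rose (50.6%), with a median of 0.96, and among L1MdT fusions 15 of 35 rose (42.9%), with a median of 2.34, or 2.26 with lower bounds.

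Of the fusion genes, Nckap1l, a subunit of the WAVE complex in blood cells, had 32.0 CPM in KO1 and 28.3 CPM in KO2, against 6.10 CPM in NT1 and 5.66 CPM in NT2 (2.36 ± 0.11, edgeR adjusted p = 1.62e-07). Gc, which encodes the vitamin D binding protein, had 6.84 and 6.00 CPM in KO, against 1.15 and 0.735 CPM in NT. Clca3b, of the calcium-activated chloride channel regulators, had 3.50 and 2.45 CPM in KO, against 0.577 and 0.599 CPM in NT. All were apart between groups, as was every called gene. Reg2 had 1.16 and 1.33 CPM in KO, against 0.546 and 0.272 CPM in NT, and was not called without NT2. At E8.5 itself 116 genes (0.51%) were called higher here, in a fit with no term for sex. Of these, 52 were among the 931, which is 44.8% of the embryo calls and 5.59% of the EB calls.

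Increases in EBs were largely shared with mESCs of the same lines, in which 2068 of 20159 genes (10.3%) rose and 1803 (8.94%) fell in Zmym2-/-. Of the 931 genes that rose in EBs, 552 rose in mESCs, which is 59.3% of the EB calls and 26.7% of the mESC calls. Of the 558 that fell, 240 fell in mESCs (43.0% and 13.3%). Of the 311 genes that rose by at least 4-fold in EBs, 304 were tested in mESCs, 265 rose there and 294 had a positive fold change, with a median log2 fold change of 4.06. Libraries of the stages are separate, but the clones are the same, so these shares do not separate genotype from clone.

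The genotype effect itself differed between stages for a minority of genes. In a stage by genotype interaction over 18926 genes, the effect was more positive in EBs for 581 (3.07%) and more negative for 412 (2.18%) (edgeR). With the clonal line as a replicate block, these counts were 1299 and 1026. They were 291 and 247 without KO1, 204 and 170 without NT1, and 83 and 76 without NT2. Of the 993 genes, 862 had the larger effect in mESCs, 725 were called in mESCs and not in EBs, and 91 the reverse. Of the 993, 130 were called at both stages, and 61 of these with opposite signs. Of the 412, 353 rose in mESCs, and of the 581, 491 fell in mESCs. Most of the differences were therefore changes in mESCs that were smaller or not seen in EBs.

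Primed epiblast genes gave the clearest case. Fgf5, at similar levels in both EB groups, had 3.29 and 3.68 CPM in Zmym2-/- mESCs, against 0.337 and 0.0549 CPM in control mESCs (EB minus mESC effect -3.87 ± 0.33, edgeR adjusted p = 6.30e-05). Otx2, an epiblast homeobox gene, had 27.6 and 34.1 CPM in Zmym2-/- mESCs, against 5.93 and 5.57 CPM in control mESCs, and 124 and 133 CPM in Zmym2-/- EBs, against 144 and 171 CPM in control EBs (-2.71 ± 0.16). Its decrease in EBs was not called without KO1 or NT2. Dnmt3b had 561 and 769 CPM in Zmym2-/- mESCs, against 240 and 170 CPM in control mESCs (-1.83 ± 0.21). Of 20 formative and primed genes, 14 rose in mESCs and 2 in EBs, and the interaction was negative for 12 and positive for 2.

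Naive factors were divided in mESCs, where 8 of 19 fell and 5 rose, with increases for Dppa3, Klf2 and Pecam1. Klf4 had 93.5 and 106 CPM in Zmym2-/- mESCs, against 346 and 389 CPM in control mESCs, while it was low in all EBs (EB minus mESC effect 2.07 ± 0.21, edgeR adjusted p = 0.000245). Tfcp2l1 had 54.1 and 33.0 CPM in Zmym2-/- mESCs, against 147 and 153 CPM in control mESCs (2.01 ± 0.30). In EBs 6 of the 19 rose and 1 fell, and the interaction was positive for 7 and negative for 1. For Klf4 and Tfcp2l1 the decrease in mESCs was thus not seen to the same degree at day 3.

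A smaller set had the larger effect in EBs. Tex15 had 19.6 and 21 CPM in Zmym2-/- mESCs, against 17.9 and 18.3 CPM in control mESCs, while in EBs it was higher in KO as given above (EB minus mESC effect 1.46 ± 0.17, edgeR adjusted p = 0.000570). Gm4779 had 13.2 and 12.3 CPM in Zmym2-/- EBs, against 3.31 and 2.64 CPM in control EBs, and 10.7 and 12.9 CPM in Zmym2-/- mESCs, against 10.2 and 7.94 CPM in control mESCs (1.73 ± 0.24). For both, control levels were lower in EBs than in mESCs, and mean Zmym2-/- levels were not. Of the 23 2-cell genes 22 were tested, and 0 were called by the interaction, with effects in mESCs at a median of 7.18. Zscan4d and Zscan4f, with few or no control counts, had EB minus mESC effects of 2.49 ± 2.86 and 4.58 ± 3.14. With errors this wide, the lack of calls does not show that effects were equal at both stages.

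**Figure D4:**
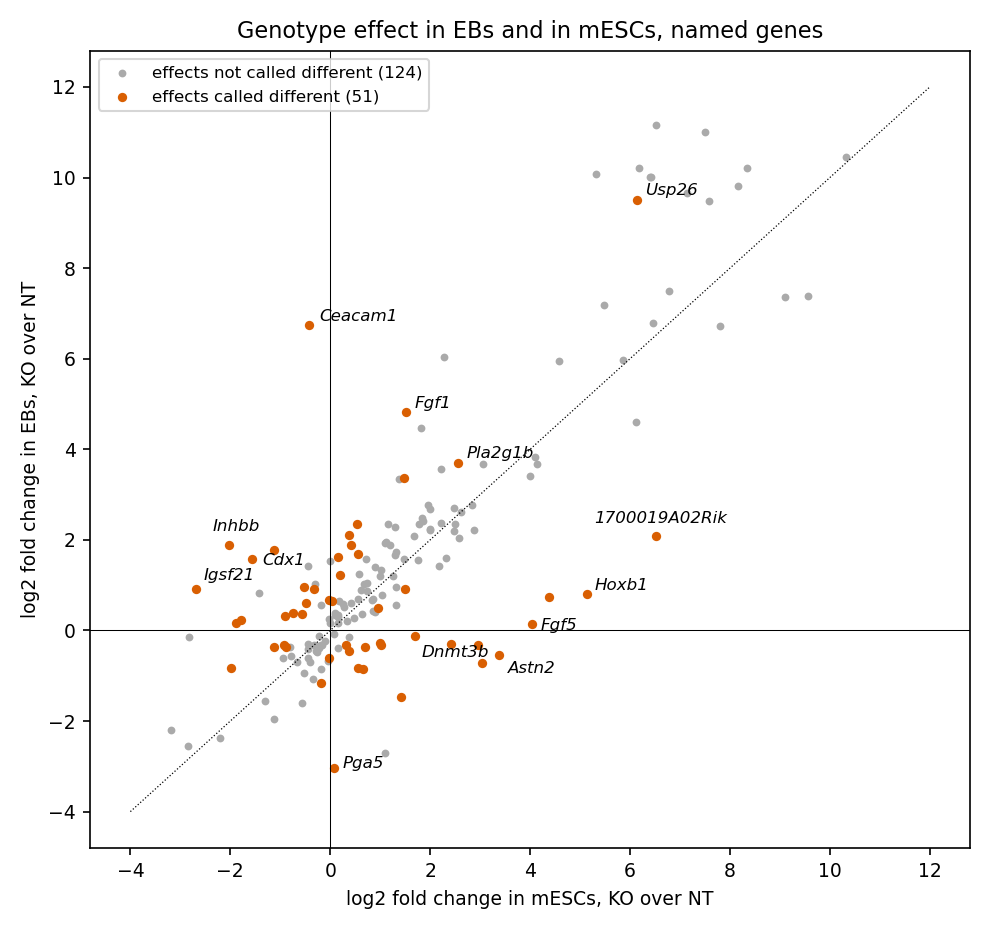
Log2 fold change of Zmym2-/- over control in EBs (vertical axis) against that in mESCs (horizontal axis) for 175 named genes, 1 point per gene, with the dotted line at equal effects. The 51 genes whose effects differ between stages by edgeR are orange and the other 124 grey; Fgf5 and Dnmt3b lie near 0 in EBs with an increase in mESCs, and Usp26 rose at both stages.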

How the data were processed

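Stranded mRNA libraries of day 3 EBs from 2 Zmym2-/- and 2 control V6.5 clones were analysed, with mESC libraries of the same clones and E8.5 embryos for comparison. Per the labels and methods, the authors used Trimmomatic 0.34 for trimming, STAR 2.7.8a for alignment to mm10 and Picard 2.9.0 for duplicates, and made the deposited raw counts per gene with HTSeq. The annotation and strand setting of counting are not given in the sources used here. Antisense and overlapping genes may therefore share reads. The deposited RPKM values were made by the authors with StringTie 1.3.5. Another 32 per-sample columns (the authors' normalized counts, and embryo RPKM) were not used.

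Counts were tested in R 4.3.3 with edgeR 4.0.16 (TMM, glmQLFit and glmQLFTest, two-sided) on genes with at least 10 counts summed over the libraries. All genes in the deposited EB table met this. Genes were called at a Benjamini-Hochberg p under 0.05, and "rose" and "fell" are used of called genes. Standard errors were taken as |log2 fold change| divided by the root of F. The fit held the 4 EB libraries and no covariate. The interaction fit held all 8 line libraries. Same-numbered KO and NT libraries were not paired, since their deviations from the group means correlated at -0.02. The same clones gave both stages, and their deviations correlated at 0.33 (KO) and 0.11 (NT), so the clone was also fitted as a block. Floors and counting intervals cover counting error only. At 1 CPM, counting error was 14.0% to 17.4%. GENCODE vM21 positions (GRCm38) matched 20117 genes and left 25 unmatched.

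The fits were tested on simulated data with known changes. Gene lists and members were chosen with earlier results of these data known. Named genes were Zmym2, the 10 largest called changes of at least 4-fold in each direction with at least 1 CPM in the higher group, up to 4 called members of each list by p, genes the study followed in EBs, and the 5 largest interactions in each direction at a mean of at least 1 CPM. Another 29 were added after their values were seen. Alternatives were DESeq2 1.42.0, RLE scaling, other filters, leaving out each library, a replicate block, all 8 libraries in 1 fit, and limma 3.58.1 on log2(RPKM + 0.1) and log2(RPKM + 1). 1 gene that the naming rule selects is not reported here.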

Additional observations from a re-analysis of the deposited data

Results flagged for a closer look

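The genotype effect of 51 of the 178 named genes differed between EBs and mESCs in the stage by genotype interaction of edgeR, and each value below is the log2 effect (Zmym2-/- over control) in EBs minus that in mESCs. The number of such genes moved with single clones, as given under the processing alternatives.

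Values were positive for 29 genes. Ceacam1, a cell adhesion gene, had 7.11, with 17 and 12 counts in Zmym2-/- EBs and none in control EBs, at least 7.95-fold higher. In mESCs it had 4.42 and 4.54 CPM in KO, against 6.10 and 5.90 CPM in NT. The activin subunit gene Inhbb had 3.95, Igsf21 3.61, Usp26 3.37, Fgf1 3.30, Cdx1 3.15 and Prdm14 2.92. Among pluripotency and signalling genes, Klf4 had 2.07, Tfcp2l1 2.01, Esrrb 1.24, Zfp42 0.70, Tcf15 1.16, Axin2 1.24, Fst 1.47, Etv4 0.76, Dusp4 0.62, Furin 0.62 and Pim3 0.51. Germline and study-listed genes had 1.82 (M1ap), 1.73 (Gm4779), 1.47 (8030474K03Rik), 1.46 (Tex15), 1.14 (Pla2g1b), 1.13 (Dazl), 1.13 (Ddx4) and 1.03 (Piwil2). Of these, Ddx4 fell in mESCs, with 20.6 and 18.9 CPM in KO, against 30.1 and 36.6 CPM in NT. Inpp5d had 1.87, Phlda3 1.08 and Insig1 0.94.

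Values were negative for 22 genes. Hox genes, which pattern the body axis, had -4.32 (Hoxb1), -3.65 (Hoxb4) and -2.88 (Hoxb3). Hoxb1 had 3.23 and 5.35 CPM in Zmym2-/- mESCs, against 0.126 and 0.110 CPM in control mESCs, and 1.57 and 3.11 CPM in Zmym2-/- EBs, against 1.58 and 1.06 CPM in control EBs. Primed epiblast genes had -3.87 (Fgf5), -2.71 (Otx2), -1.83 (Dnmt3b), -1.34 (Sall2), -1.28 (Dnmt3a) and -1.06 (Tcf7l1), and the protocadherin gene Pcdh8 had -3.26. Others were 1700019A02Rik at -4.42, Astn2 at -3.91, Creb5 at -3.77, Pga5 at -3.11, Stmn2 at -1.50, Chac1 at -1.37, Nr0b1 at -0.96, Tubb3 at -0.82, Herpud1 at -0.66, Lefty2 at -0.59, Id3 at -0.58 and Ifitm3 at -0.45. With 2 libraries per group, single libraries could not be screened for outlying values.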

How the results depend on the processing

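With RLE scaling and DESeq2, counts of calls over all genes stayed within 1.5 times those of edgeR. Dropping the count minimum repeats the main EB fit, since all genes of the table met it. Of the 931 and 558 calls, 0 turned direction under any alternative for EBs. Limma on log2(RPKM + 0.1) called 254 genes higher and 55 lower, of which 131 and 3 by at least 4-fold, and on log2(RPKM + 1) it called 168 and 35, of which 18 and 0 (0 also at an unadjusted p under 0.05). Of the calls made on RPKM 82.2% and 82.8% were higher, against 62.5% on counts. A filter of 1 CPM in 2 libraries left 128 genes higher and 2 lower by at least 4-fold, as fewer low genes were tested. All 8 line libraries in 1 fit gave 291 lower and 4 lower by at least 4-fold. The sample number as a replicate block, which does not pair these clones, gave 1232 higher, 841 lower and 12 lower by at least 4-fold, and the line as a block gave 1299 positive and 1026 negative interactions.

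Leaving out each library, 690 to 1089 genes were higher, 403 to 746 lower, 254 to 381 higher by at least 4-fold and 7 to 18 lower by at least 4-fold. Interactions ranged from 83 to 448 positive and from 76 to 294 negative, with the lowest counts without NT2. The 20 calls among 2-cell genes were 7 on log2(RPKM + 1), 13 with the 1 CPM filter and 17 to 22 without 1 library, and the 67 among study-listed genes were 26, 54 and 55 to 67. In DESeq2 the 8 calls among X-linked germline genes were 5 and the 3 increases among streak genes were 1. On log2(RPKM + 0.1) and log2(RPKM + 1), increases were 4 and 4 for meiosis (13 on counts), 6 and 5 for the piRNA pathway (10), 4 and 4 for germ cell regulators (10) and 3 and 2 for X-linked genes (8). Of 151 named EB calls, 97 were lost on log2(RPKM + 1), 81 on log2(RPKM + 0.1), 27 with all 8 libraries in 1 fit, 12 in DESeq2, 18 without KO1, 19 without NT1 and 19 without NT2. Depth limits genes near 0.1 CPM, where counting error alone was 44.3% to 54.9%.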

Other observations

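Motile cilia genes, which build axonemes, were read in addition. Of 32 tested, 4 rose (12.5%, against 4.62% of all genes) and 0 fell in Zmym2-/- EBs (2 lower at an unadjusted p under 0.05, 0 in DESeq2). Their median log2 fold change was 0.32. Spag16, of the central pair, had 3.10 and 4.53 CPM in KO, against 1.46 and 0.926 CPM in NT (1.67 ± 0.29, edgeR adjusted p = 0.00388). Hydin, also of the central pair, had 1.06 and 1.59 CPM in KO, against 0.273 and 0.191 CPM in NT (2.49 ± 0.44).

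Neuronal genes under the repressor REST leaned down. Of 21 tested, 4 fell (19.05%, against 2.77% of all genes) and 1 rose (4.76%, against 4.62%), with a median of -0.35. Stmn2, which encodes a regulator of microtubules, had 26.6 and 32.9 CPM in KO, against 62.1 and 44.3 CPM in NT (-0.84 ± 0.14, edgeR adjusted p = 0.00293). Bdnf, the neurotrophin gene, was the 1 that rose, with 5.50 and 5.31 CPM in KO, against 2.88 and 2.99 CPM in NT.

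Of 14 tested trophoblast genes 3 rose (21.4%, against 4.62% of all genes) and 0 fell in edgeR (2 lower at an unadjusted p under 0.05, and 1 lower in DESeq2). Ascl2, a placental transcription factor gene, had 2.53 and 1.99 CPM in KO, against 1.15 and 0.817 CPM in NT, and was not called without KO1 or NT2. Of 33 tested Hox genes 1 rose and 1 fell (3.03% each, against 4.62% and 2.77% of all genes).

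The Y-linked gene Uba1y had 0.314 and 1.96 CPM in Zmym2-/- EBs, against 0 and 0.0272 CPM in control EBs, and Eif2s3y had 3.38 and 5.63 CPM in Zmym2-/- mESCs, against 0.105 and 0 CPM in control mESCs. Thus the low Y-linked signal was present in both KO clones at both stages.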
